A study of Rattus norvegicus with 4 samples.

Results

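The NRF2 antioxidant genes are 10 genes taken by name from the table of gene counts: Nfe2l2, which codes for the transcription factor NRF2, and Nqo1, Hmox1, Gclc, Gclm, Slc7a11, Txnrd1, Srxn1, Gsr and Prdx6. All 10 were found, each on 1 row, among 21648 gene identifiers, and all 10 passed the filter on low counts. They were measured by RNA sequencing in neurons cultured from the cortex of rat embryos at E18, bought as BrainBits tissue, that had been given topotecan (2 libraries) or its solvent control DMSO (2 libraries). Topotecan traps topoisomerase I on DNA and was used to lower the expression of long genes. All cells started in STEMdiff Neural Induction Medium and were moved after a day to BrainPhys medium with the SM1 supplement. The sources used here give neither strain nor dose nor length of exposure. Nothing in the labels says that the libraries of a group came from separate cultures, so p-values measure the spread between these libraries, which may be technical.

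NRF2 is a transcription factor that is bound by KEAP1 and broken down in unstressed cells. Oxidants and electrophiles release it, and it then pairs with small MAF proteins and switches on genes that carry an antioxidant response element (ARE). These genes make and recycle glutathione, reduce thioredoxin and peroxiredoxins, and break down quinones and heme. In the brain the pathway is known to be much more active in astrocytes than in neurons.

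RefSeq promoter windows of the rat assembly GRCr8, which run from 250 bases before a transcript start to 50 bases after it, matched 7 of the 10 genes by symbol (Nfe2l2, Nqo1, Gclc, Gclm, Slc7a11, Txnrd1 and Srxn1). They were searched on both strands for the ARE core TGACNNNGC and its other common form TGAGNNNGC. The first was present in 2 of the 7 windows (Nfe2l2 and Gclm), and in 12.2% of all 27457 windows of that length. The second was present in Srxn1 alone of the 7, against 17.2% of all windows. The windows of the gene with the deepest fall (Nqo1), which held neither form, and of the 3 genes that held one are printed with the matches in capitals. Nqo1 is at chr19:52220218-52220517 on the minus strand, Nfe2l2 at chr3:81028950-81029249 on the minus strand, Srxn1 at chr3:161064562-161064861 on the plus strand and Gclm at chr2:213031885-213032184 on the plus strand.
Nqo1: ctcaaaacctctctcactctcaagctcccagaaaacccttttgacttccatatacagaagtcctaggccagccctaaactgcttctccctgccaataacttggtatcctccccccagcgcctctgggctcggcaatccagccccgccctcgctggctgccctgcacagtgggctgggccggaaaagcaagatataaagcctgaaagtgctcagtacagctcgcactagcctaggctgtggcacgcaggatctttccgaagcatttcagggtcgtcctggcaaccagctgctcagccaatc
Nfe2l2: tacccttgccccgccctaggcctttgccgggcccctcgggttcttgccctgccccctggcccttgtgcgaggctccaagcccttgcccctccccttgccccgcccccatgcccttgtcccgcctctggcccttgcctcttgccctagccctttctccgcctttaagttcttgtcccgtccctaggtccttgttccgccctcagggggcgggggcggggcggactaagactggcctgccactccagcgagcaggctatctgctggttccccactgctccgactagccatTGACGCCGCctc
Srxn1: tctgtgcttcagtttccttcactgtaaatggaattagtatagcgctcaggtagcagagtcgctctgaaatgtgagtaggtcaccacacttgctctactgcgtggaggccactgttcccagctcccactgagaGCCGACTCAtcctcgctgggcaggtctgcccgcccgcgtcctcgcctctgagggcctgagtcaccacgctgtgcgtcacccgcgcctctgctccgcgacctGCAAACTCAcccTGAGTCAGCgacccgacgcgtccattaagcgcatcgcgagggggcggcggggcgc
Gclm: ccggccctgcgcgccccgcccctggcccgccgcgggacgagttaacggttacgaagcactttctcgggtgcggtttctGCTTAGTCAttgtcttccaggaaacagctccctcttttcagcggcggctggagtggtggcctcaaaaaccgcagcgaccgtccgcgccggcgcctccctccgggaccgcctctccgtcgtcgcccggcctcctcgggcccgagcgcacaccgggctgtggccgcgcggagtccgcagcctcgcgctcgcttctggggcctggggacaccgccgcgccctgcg
The Nfe2l2 match lay 39 to 47 bases after the start, counted from 1 at the first transcribed base. The Gclm match lay at -172 to -164 and was read from the opposite strand. Of the 3 Srxn1 matches, 2 were read from the opposite strand (-118 to -110 and -17 to -9). The one at -5 to 4 overlapped an AP-1 site, TGACTCA on the opposite strand, at -5 to 2. Another such site in the Srxn1 window, left in lower case, lay at -62 to -56. TGACTCA was held by 4.53% of all windows. A match is a run of letters and not a measured binding site. A window without a match, as for Nqo1, does not show that the gene lacks an ARE, since sequence outside the window was not searched.

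The libraries held 31181382 and 25459488 counts in topotecan and 27347410 and 22957786 in DMSO. The labelled neurons were present in all 4 libraries, with 19 pan-neuronal markers (Tubb3, Stmn2 and Gap43 the most abundant) summing to 34984.3 and 35930.1 CPM in topotecan and 32076.9 and 29670.2 CPM in DMSO. These 19 did not move as one: 5 were called lower, 8 were called higher and 6 did not pass. Their log2 fold changes ran from -1.53 to 0.78, with a median of 0.24. CPM are counts per 1e6 library counts after TMM scaling between libraries. Glial RNA differed between the groups. All 15 astrocyte markers fell, with Glul, Aldoc and Slc1a3 the most abundant, and their sum was 540.7 and 581.3 CPM in topotecan against 6413.8 and 6522.2 CPM in DMSO. All 13 oligodendrocyte lineage markers fell, with Cnp and Mbp among the most abundant and sums of 137.4 and 123.5 CPM in topotecan against 4065.7 and 4380.7 CPM in DMSO, and Sox10 was at 0 counts in topotecan. Of 8 tested radial glia and progenitor markers 7 fell, and the sum of all 10 (Fabp7, Sox2 and Vim the most abundant) was 16.9 and 16.2 CPM in topotecan against 373.4 and 349.3 CPM in DMSO. Of 12 microglia markers with a row, 11 had under 20 counts in every library. Further markers at 0 counts in topotecan alone were Hes5 (progenitors), P2ry12 and Trem2 (microglia), Flt1 (endothelium) and Col1a1 (fibroblasts), while Aif1, Cx3cr1, Tmem119, C1qa, C1qb and C1qc (microglia) and Cdh5 (endothelium) were at 0 in both groups. The median log2 fold change was -5.90 for the astrocyte list, -5.57 for the oligodendrocyte list and -3.02 for the progenitor list, against -0.01 for all 12162 genes tested. In bulk RNA, fewer cells of a type and less RNA per cell cannot be told apart.

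Topotecan libraries had less RNA of most NRF2 antioxidant genes than DMSO libraries. Of the 10 genes, 7 fell, 1 rose (Gsr) and 2 (Gclc and Txnrd1) did not pass the test (edgeR's quasi-likelihood test at an adjusted p under 0.05, by Benjamini-Hochberg over all genes). Over all tested genes 23.5% were called lower and 16.2% higher, 39.7% in all. Scaled to the pan-neuronal markers, 86.8% of all calls were lower, against 59.2% with TMM. The size of the falls was uneven. Nfe2l2, Nqo1 and Hmox1 fell by more than 16-fold, as 3.35% of all tested genes did, called or not. Prdx6, Srxn1 and Slc7a11 fell by between 2- and 16-fold, as 10.3% of all tested genes did, called or not, and the remaining 4 genes stayed within 2-fold. The middle 50% of all tested genes, from -0.43 to 0.26 on the log2 scale, also lay within 2-fold. The median log2 fold change of the 10 genes was -1.57, against -0.01 for all genes. In no gene of the 10 did the CPM of the groups overlap: 9 were lower in both topotecan libraries (36.9% of all tested genes were) and Gsr was higher in both (33.7% were). The part of the glial RNA in these differences was not tested.

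**Figure D1:**
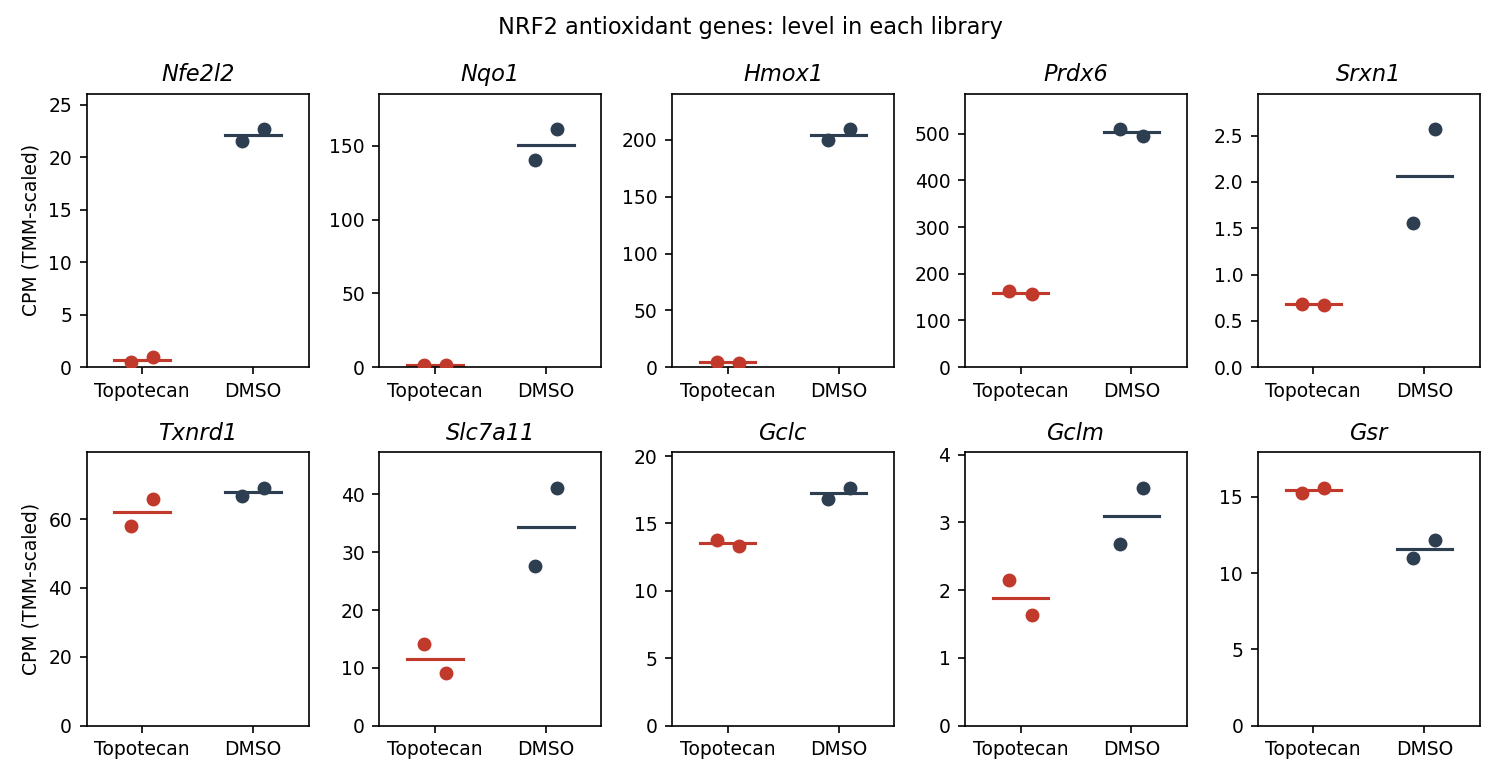
Level of each of the 10 NRF2 antioxidant genes in CPM (TMM-scaled, linear axis from 0, own scale per panel) in the 2 topotecan and 2 DMSO libraries; points are libraries and lines are group means. Nfe2l2, Nqo1 and Hmox1 lie near 0 in topotecan, Txnrd1 and Gclc lie close to their DMSO level, and Gsr alone is higher in topotecan.

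**Figure D2:**
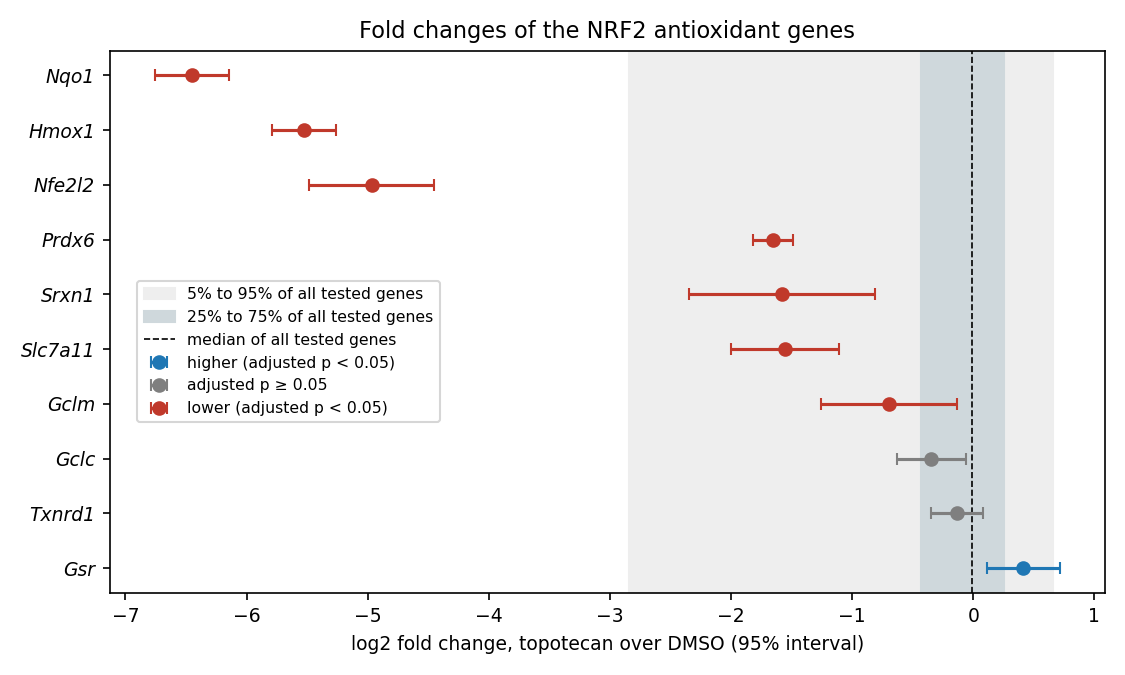
Log2 fold change of each gene, topotecan over DMSO, with its unadjusted 95% interval, over shaded bands for the middle 50% and 90% of all tested genes. Nqo1, Hmox1 and Nfe2l2 lie left of both bands, and Gsr is the only gene to the right of the median.

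The gene of the regulator itself fell deeply. Nfe2l2 (ENSRNOG00000001548) had 14 and 25 counts in the topotecan libraries, against 594 and 529 counts in the DMSO libraries. In CPM this was 0.457 and 0.991 in topotecan and 21.5 and 22.7 in DMSO. Both topotecan libraries were far below both DMSO libraries, and in proportion the topotecan libraries, with 39 counts between them, differed from each other by more than the DMSO libraries did. Leaving out topotecan replicate 2 gave a log2 fold change of -5.58, and leaving out topotecan replicate 1 gave -4.47. Its log2 fold change was -4.97 (SE 0.24, edgeR adjusted p = 1.1e-09), and the ratio of summed counts put topotecan 31.6-fold lower, with an exact 95% counting interval from 23.0 to 44.7. Such intervals cover counting error only. Keap1, which codes for the protein that holds NRF2 for degradation, moved little by comparison, with 14.7 ± 0.658 CPM in topotecan and 18.9 ± 0.333 CPM in DMSO (SD, n = 2 each). Its log2 fold change of -0.36 (SE 0.13, edgeR adjusted p = 0.0387) no longer passed in 6 of 12 alternatives, among them those without topotecan replicate 1 (-0.31), topotecan replicate 2 (-0.40) or DMSO replicate 1 (-0.33).

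Nqo1 and Hmox1, the genes most often read as NRF2 output, fell the furthest of the 10. Nqo1 (ENSRNOG00000012772) codes for a quinone reductase that uses NADH or NADPH. It had 1.73 and 1.71 CPM in the topotecan libraries (53 and 43 counts), against 140.1 and 161.3 CPM in the DMSO libraries (3865 and 3766 counts). The topotecan libraries were nearly equal and both were close to 1% of the DMSO level. The log2 fold change was -6.45 (SE 0.14, edgeR adjusted p = 3.7e-13), which placed the gene at the 1.38 percentile of all tested genes counted from the deepest fall. By summed counts topotecan was 87.2-fold lower (interval 71.3 to 108). Hmox1 (ENSRNOG00000014117) codes for the inducible heme oxygenase, which opens the heme ring and frees iron and carbon monoxide. It had 4.89 and 3.93 CPM in topotecan, against 199.5 and 209.4 CPM in DMSO. Here too the replicates of each group were close to each other and the groups far apart. Hmox1 had a log2 fold change of -5.52 (SE 0.12), with an edgeR adjusted p of 4.3e-13, and the counts put topotecan 45.8-fold lower (interval 40.4 to 52.1). The log2 fold changes of Nfe2l2, Nqo1 and Hmox1 lie inside the wide range of the 15 astrocyte markers, -10.58 to -1.99. They also lie inside the ranges of the oligodendrocyte lineage markers (-11.24 to -1.06) and the tested progenitor markers (-9.41 to 0.50). The progenitor range holds all of the 10 genes, so lying inside such wide ranges does not set the deep falls apart. The part of glial RNA in these falls was not tested.

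Among the genes of the thioredoxin and peroxiredoxin system, Prdx6 and Srxn1 fell less than Nqo1 and Hmox1, and Txnrd1 did not pass the test. Prdx6 (ENSRNOG00000002896) codes for a peroxiredoxin that takes its electrons from glutathione and also acts on phospholipids. It had 163.3 and 156.1 CPM in topotecan, against 509.9 and 496.0 CPM in DMSO. The replicates were close, and 31.8% of the DMSO level was left in topotecan by summed counts. This gave a log2 fold change of -1.65 (SE 0.08, edgeR adjusted p = 7.7e-10). Srxn1 (ENSRNOG00000031167) codes for sulfiredoxin, which repairs peroxiredoxins that have been overoxidised. It was sparse, with 21 and 17 counts in topotecan and 43 and 60 counts in DMSO, or 0.685 and 0.674 CPM in topotecan and 1.56 and 2.57 CPM in DMSO. The DMSO libraries were both higher but differed from each other by more than the topotecan libraries did. Its log2 fold change was -1.58 (SE 0.36, edgeR adjusted p = 0.0031). Txnrd1 (ENSRNOG00000009088), the gene of the cytosolic thioredoxin reductase, a selenoprotein, had 58.1 and 65.8 CPM in topotecan and 66.6 and 69.1 CPM in DMSO. The highest topotecan library almost reached the lowest DMSO library. The log2 fold change of -0.13 (SE 0.10, edgeR adjusted p = 0.315) did not pass, and its 95% interval ran from -0.35 to 0.08.

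Among the genes for cystine uptake and glutathione, the importer and 1 of the 2 subunits of the synthesis enzyme fell, and the recycling enzyme rose, the last 2 calls by less than 2-fold. Both subunit genes were lower in both topotecan libraries. Their edgeR adjusted p lay just either side of the threshold (Gclm 0.0474, Gclc 0.0511), so the calls do not set the subunits apart. Slc7a11 (ENSRNOG00000010210) codes for the light chain of the system that brings cystine in and glutamate out. It had 14.1 and 9.08 CPM in topotecan, against 27.6 and 41.2 CPM in DMSO. The replicates of both groups were spread more widely in proportion than for Nqo1, Hmox1 or Prdx6, yet the groups stayed apart. The log2 fold change was -1.56 (SE 0.21, edgeR adjusted p = 4.3e-05). Without one library at a time it ran from -1.91 to -1.24.

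Glutamate-cysteine ligase, the rate-limiting enzyme of glutathione synthesis, is made of a catalytic subunit (Gclc) and a modifier subunit (Gclm). Gclc (ENSRNOG00000006302) had 13.8 and 13.3 CPM in topotecan and 16.8 and 17.6 CPM in DMSO. The replicates were tight and the groups apart, but the difference was small, with a log2 fold change of -0.35 (SE 0.13, interval -0.63 to -0.06 before adjustment), and edgeR's adjusted p of 0.0511 missed the threshold. It passed without DMSO replicate 1, at -0.37 (adjusted p = 0.0405, within 0.00753 to 0.261 over all alternatives). Gclm (ENSRNOG00000013409) was sparse, with 66 and 41 counts in topotecan and 74 and 82 counts in DMSO, or 2.15 and 1.63 CPM in topotecan and 2.68 and 3.51 CPM in DMSO. Its log2 fold change was -0.69 (SE 0.26, edgeR adjusted p = 0.0474). This call was the most fragile of the 10 genes and was lost in 7 of 12 alternatives, with adjusted p from 0.0139 to 0.244. It was -0.51 without topotecan replicate 2 and -0.49 without DMSO replicate 2.

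Gsr (ENSRNOG00000014915) codes for glutathione reductase, which returns oxidised glutathione to its reduced form with NADPH. It had 15.2 and 15.6 CPM in topotecan, against 11.0 and 12.2 CPM in DMSO, so both topotecan libraries were higher. The log2 fold change was 0.41 (SE 0.14, edgeR adjusted p = 0.0294). The call was lost in 5 of 12 alternatives, with adjusted p from 0.0123 to 0.323. The value was 0.44 without topotecan replicate 1, 0.40 without topotecan replicate 2 and 0.35 without DMSO replicate 1. Scaled to the summed pan-neuronal markers, it was 0.21, where the median of all genes moved to -0.21.

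Each gene was also set against a partner or a related gene within the same library, where the scaling between libraries drops out. With 2 libraries against 2 an exact permutation test, 2-sided, cannot go below p = 0.333, so the 10 ratios are given as values. The log2 ratio of Hmox1 to Hmox2, the constitutive heme oxygenase, was -5.34 and -5.72 in topotecan, against 0.04 and 0.18 in DMSO. Hmox2 itself was at 0.09 on the log2 fold change scale, short of the threshold (edgeR adjusted p = 0.384, -0.11 when scaled to the pan-neuronal markers). The ratio of Nfe2l2 to Keap1 was -4.96 and -3.94 in topotecan, against 0.17 and 0.28 in DMSO. The ratio of Nfe2l2 to Nfe2l1, its close relative, was -6.91 and -5.89 in topotecan and -1.56 and -1.54 in DMSO. Thus Hmox1 and Nfe2l2 each stood far lower against their relatives in both topotecan libraries.

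Nqo1 to Nqo2, a related quinone reductase, was 1.56 and 1.43 on the log2 scale in topotecan, against 5.83 and 5.97 in DMSO, although Nqo2 also fell (log2 fold change -2.04, SE 0.31). Slc7a11 to Slc3a2, the heavy chain it pairs with, was -6.38 and -6.84 in topotecan and -5.01 and -4.31 in DMSO. Slc3a2, which also serves other amino acid transporters, rose by 0.38 (SE 0.08, edgeR adjusted p = 0.0021), a call lost when scaled to the pan-neuronal markers (0.18). The heavy and the light chain were thus called in opposite directions. Prdx6 to Prdx1, a peroxiredoxin that uses thioredoxin, was 0.01 and -0.05 in topotecan, against 1.44 and 1.36 in DMSO. Srxn1 to Prdx1, one of its substrates, was -7.88 and -7.90 in topotecan, against -6.91 and -6.23 in DMSO. The smallest shifts were those of the enzymes that stayed within 2-fold. Gclc to Gclm was 2.68 and 3.03 in topotecan and 2.65 and 2.33 in DMSO. Txnrd1 to Txnrd2, the mitochondrial reductase, was 2.43 and 2.86 in topotecan and 3.03 and 3.42 in DMSO. For Gsr to Gss, the glutathione synthetase gene, the topotecan ratios of -0.55 and -0.62 fell between the DMSO ratios of -0.96 and -0.51.

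**Figure D3:**
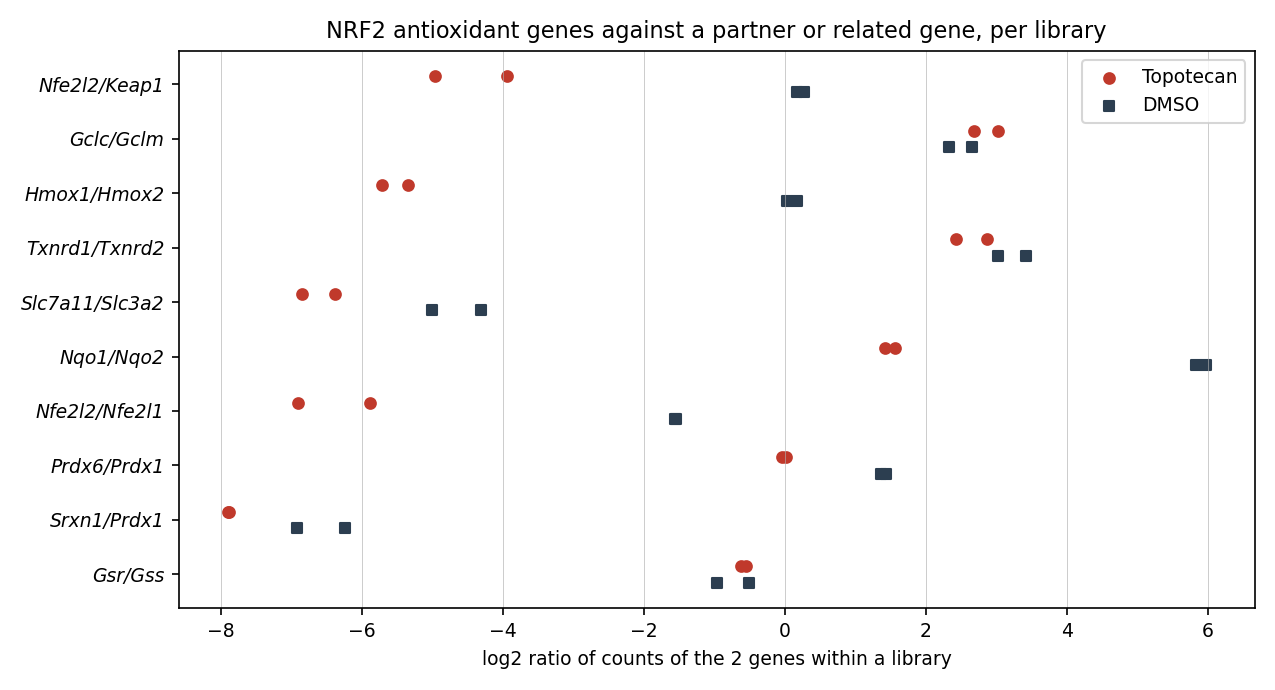
Log2 ratio of the counts of 2 genes within each library, for 10 pairs; circles are topotecan libraries and squares DMSO libraries. The groups lie furthest apart for Hmox1/Hmox2, Nfe2l2/Nfe2l1, Nfe2l2/Keap1 and Nqo1/Nqo2, and they overlap for Gsr/Gss.

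Other genes of the pathway moved in both directions. Of 17 tested genes for proteins that control NRF2 (20 listed), 3 fell, 2 rose and 12 did not pass, with a median log2 fold change of -0.13. Trim21, a ubiquitin ligase, had no counts in topotecan and 37 in DMSO, at least 13.5-fold lower with 3 counts over the group as the floor. Btrc, a ubiquitin ligase adaptor that marks NRF2 for degradation, fell by 0.38 (SE 0.10), and Keap1 was the third. Sqstm1, the autophagy receptor that binds KEAP1, was called higher at 0.28 on the log2 scale (SE 0.09). Without topotecan replicate 1 and without topotecan replicate 2, 0 of the 17 rose. The call of Sqstm1 was also lost without DMSO replicate 2 (0.14), and that of Btrc without topotecan replicate 1 (-0.30).

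Besides the 10 genes, 31 tested genes for glutathione use and export (40 listed) split evenly, with 9 lower, 10 higher and 12 not passing, and a median of 0.09. The glutathione transferase gene Gsta1 fell by 6.54 on the log2 scale (SE 0.31; 7.16 without topotecan replicate 1), to 0.121 ± 0.0593 CPM in topotecan against 12.1 ± 1.31 CPM in DMSO. The microsomal transferase gene Mgst1 fell by 4.91 (SE 0.33) and Gstm1, another transferase gene, by 1.08 (SE 0.09). Glrx, the gene of glutaredoxin, rose by 0.67 (SE 0.07), to 427.9 ± 4.40 CPM in topotecan against 268.5 ± 6.14 CPM in DMSO. Members of several transferase families are close copies, so reads may be shared between them.

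Of 17 other thioredoxin and peroxiredoxin genes 4 fell, 5 rose and 8 did not pass (median 0.08). Prdx2, a peroxiredoxin abundant in neurons, rose by 0.60 (SE 0.08), while Msra, a methionine sulfoxide reductase gene, fell by 0.87 (SE 0.14), Sesn3, a sestrin gene, by 0.82 (SE 0.14) and Txnip, the thioredoxin inhibitor, by 1.30 (SE 0.25). Prdx1 had a log2 fold change of -0.24 (SE 0.08), a call lost without topotecan replicate 1 or 2. Without topotecan replicate 1 only 3 of the 17 rose. Of 20 other genes for NADPH and quinone enzymes 7 fell, 5 rose and 8 did not pass (median -0.18). Idh2, the mitochondrial isocitrate dehydrogenase, fell by 2.83 (SE 0.12), Me1, the cytosolic malic enzyme, by 1.91 (SE 0.10), and Nnt, the mitochondrial transhydrogenase, by 1.71 (SE 0.11). Aldh7a1, an aldehyde dehydrogenase gene, fell by 0.84 (SE 0.09).

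Of 19 other heme and iron genes 3 fell, 2 rose and 14 did not pass (median 0.02). Slc40a1, the iron exporter ferroportin, fell by 1.53 (SE 0.30), and by 2.19 without topotecan replicate 1. Fth1, the ferritin heavy chain, Aco1, an iron-sensing aconitase, and Ppox, an enzyme of heme synthesis, had log2 fold changes of -0.20 (SE 0.07), -0.27 (SE 0.09) and 0.37 (SE 0.10). These last 3 calls were lost without topotecan replicate 1 and without topotecan replicate 2, and that of Fth1 also without DMSO replicate 1 (-0.15). The falls then numbered 1 of 19 without either topotecan library. The rises numbered 1 without topotecan replicate 1, 0 without topotecan replicate 2 and 1 without DMSO replicate 1. Of 13 superoxide and peroxide genes, a list that shares Gpx1, Gpx4 and Prdx1 with the lists above, 6 fell, 3 rose and 4 did not pass (median -0.24). Aox1, an aldehyde oxidase gene, had 1 count in topotecan and 384 in DMSO, a 421-fold difference with an interval from 75.2 to 16680.0. Leaving out topotecan replicate 1 gave a fitted log2 fold change of -7.40. Leaving out topotecan replicate 2 gave -10.68, a fit with no topotecan count left, so that value is no bound. Sod3, the extracellular superoxide dismutase, had 0 counts in topotecan and 79 in DMSO, at least 28.9-fold lower. Sod2, the mitochondrial form, fell by 0.43 (SE 0.09), and Gpx1, a glutathione peroxidase gene, rose by 0.95 (SE 0.16). Scaled to the pan-neuronal markers, the rises in these 6 lists numbered 0, 5, 1, 2, 0 and 1, and the falls 7, 10, 6, 9, 5 and 6, in the order given. By design all falls lie in the topotecan libraries, including those of the astrocyte, oligodendrocyte lineage and progenitor lists. The part of such glial RNA in the deep falls outside the 10 genes was not tested.

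Gene span, the distance from the start to the end of a gene in RefSeq's GRCr8 annotation, was set beside these changes because topotecan was given to lower long genes. The 3 genes with the deepest falls were not long. Nqo1 spans 14.9 kb, Hmox1 27.5 kb and Nfe2l2 29.6 kb. In the class of 10 to 30 kb, which also held Gclm and Prdx6, the median log2 fold change of 3699 tested genes was 0.06, with 19.4% called lower and 3.84% lower by more than 16-fold. Slc7a11, at 135.6 kb, was the only one of the 10 over 100 kb, where the median of 1885 genes was -0.34 and 43.7% were called lower. Gclc (38.6 kb), Gsr (43.2 kb) and Txnrd1 (84.9 kb) span more than any of the 3 deepest falls. The part of gene span in the changes of the 10 genes was not tested. The sources used here do not name the authors' genome build, so spans serve only as a property of the gene. In this annotation Txnrd1 overlaps other genes, among them Eid3, and Hmox1, Gsr and Prdx6 overlap loci that have only a LOC symbol. Since the strand setting of the counting is not given either, the counts of these 4 genes may include reads of such neighbours.

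**Figure D4:**
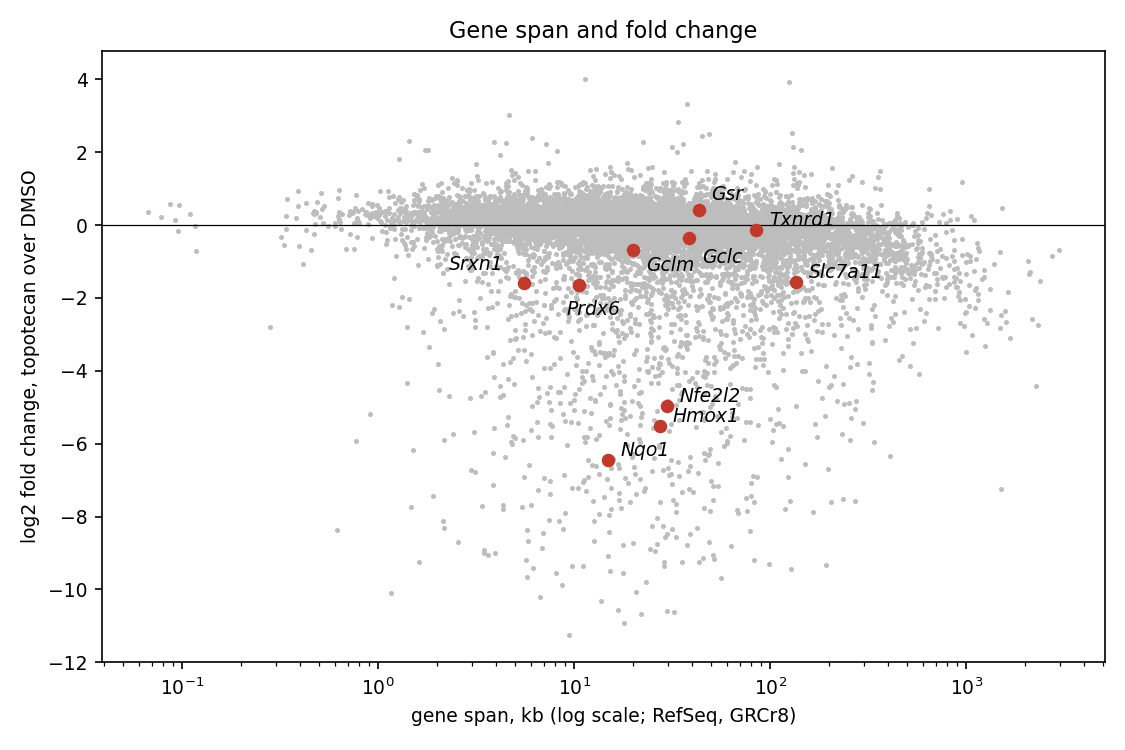
Log2 fold change, topotecan over DMSO, against gene span in kb (log axis) for all tested genes with a span (grey) and the 10 NRF2 antioxidant genes (red, named). Nqo1, Hmox1 and Nfe2l2 lie far below the median of genes of like span, and Slc7a11 is the only one over 100 kb.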

How the data were processed

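The authors deposited 1 table of whole-number counts per gene with 4 library columns, named as the sample titles. STAR and edgeR are named per the submitters' processing notes, with no version. The sources used here do not give the build, the annotation or the counting tool. A kit for small RNA libraries was used per the labels' protocols, although over 96% of counts fell on protein-coding genes. Of 22641 rows, 792 identifiers were repeated with the same counts and were used once, leaving 21648.

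Counts were tested with edgeR 4.0.16 (R 4.3.3): TMM scaling, filterByExpr (minimum count 10, minimum total 15), quasi-likelihood F-test with treatment as the only term, Benjamini-Hochberg adjustment over 12162 genes, threshold 0.05, and 2 residual degrees of freedom. Since edgeR shares variance estimates across genes, the median of the total degrees of freedom was 13.3. Standard errors were taken as the log2 fold change over the root of F. The code was tested on simulated data. Replicates differed by more than sampling noise (chi-square per degree of freedom 9.34 in topotecan and 13.0 in DMSO). Alternatives were RLE, upper-quartile, plain library-size and pan-neuronal scaling, no filter, DESeq2 1.42.0, limma-voom (limma 3.58.1), a replicate block and leaving out each library. The 10 genes and all lists were chosen from textbook knowledge with earlier results of these data known. Named besides the 10 are the 4 genes with the smallest p of each pathway list, partners in the ratios, the 3 most abundant markers of each cell type list and markers at 0 in a group. A few genes the rule takes are not reported here. Of the other lists, 2 of 3 endothelial markers (Slco1c1 and Kdr, not Esam) and 2 of 4 fibroblast and mural markers (Postn and Pdgfrb) were lower, Lum was higher and Fn1 did not pass.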

Additional observations from a re-analysis of the deposited data

How the results depend on the processing

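The log2 fold changes of Nfe2l2, Nqo1, Hmox1, Prdx6, Slc7a11 and Srxn1 kept their direction and passed in all 12 alternatives, with ranges of -5.58 to -4.47, -6.65 to -6.34, -5.73 to -5.38, -1.85 to -1.62, -1.91 to -1.24 and -1.90 to -1.19. No log2 fold change of the 10 genes changed sign. Gclm missed the threshold with RLE factors (-0.68), upper-quartile factors (-0.66), DESeq2 (-0.69), limma-voom (-0.68) and the replicate block (-0.69), and ran from -0.92 to -0.49 without single libraries. Gsr missed it with DESeq2 (0.43) and with scaling to the pan-neuronal list (0.21), and ran from 0.35 to 0.49 without single libraries. Gclc passed with library size only (-0.38) and with pan-neuronal scaling (-0.55), and ran from -0.37 to -0.31 without single libraries. Txnrd1 passed with pan-neuronal scaling (-0.34). The falls among the 10 numbered between 6 and 9, and the rise was 0 with pan-neuronal scaling and with DESeq2, and 0 to 1 without single libraries. Pan-neuronal scaling moved the all-gene median from -0.01 to -0.21 and the calls to 3907 lower and 595 higher, 86.8% lower against 59.2%. Without single libraries the higher calls ran from 1208 to 2470. With 1 library left in a group, that library is assumed to vary like the other group. Of values that did not pass, Hmox2 (-0.11), Stmn2 (-0.16) and Fn1 (-0.14) turned negative with pan-neuronal scaling, and Fn1 ran from -0.042 to 0.18 without single libraries. Deviations from the group means correlated at -0.0377 between topotecan replicate 1 and DMSO replicate 1, and the replicate block gave 2746 lower and 1822 higher genes. With 2 libraries per group this cannot show whether replicate numbers pair the libraries. A pseudocount of 1 left the sign of every pair ratio difference as it was. Depth limits Srxn1 and Gclm, with 17 to 82 counts per library, and Nfe2l2 in topotecan.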
